A study of Mus musculus with 26 samples.

Results

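The genes described here are the G protein-coupled receptors, and receptor-like proteins, that carry Gpr and a number as their name in the deposited table. Of 23107 genes in the table, 94 have such a name, and the 57 with a mean of at least 1 CPM (counts scaled to a common effective library size) in either RNA fraction were taken as members. They were thus chosen by their mean level in these libraries, and levels below are a description. Members just inside that limit were Gpr21, with a mean of 1.07 CPM in the supernatant, and Gpr133, with 1.23 CPM in the immunoprecipitate. Just outside were Gpr64 with 0.989 CPM and Gpr179 with 0.878 CPM, both in the supernatant. Of the 57 members, 52 reached 1 CPM in both fractions, 3 in the immunoprecipitate only and 2 in the supernatant only. The remaining 37 names stayed under 1 CPM in both.

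The series used TRAP-seq, in which tagged ribosomes are pulled down and their RNA is sequenced, on GnRH neurons, the cells that release gonadotropin-releasing hormone, in the mouse preoptic area. All animals were offspring of GnRH CRE males and floxed L10a-GFP females, aged 55 to 165 days, so that a GFP-tagged ribosomal protein was made wherever the Cre had been active. Each pool gave an immunoprecipitate (IP), enriched for RNA on tagged ribosomes, and a supernatant depleted of it. There were 3 pools of intact females in diestrus, 3 of ovariectomized females, 4 of intact males and 3 of orchidectomized males, with 5 to 7 mice in a pool. Pools of ovariectomized females held 7 mice each and those of orchidectomized males 5. The tag marks cells by Cre history rather than by current hormone content, and a pooled lysate averages over mice. The 26 libraries held between 27217253 and 56668582 counts. Gnrh1 averaged 9941 ± 6573 CPM (SD, n = 13 pools) in the IP and 252 ± 415 CPM in the supernatant. All 5 GnRH neuron markers passed as higher in the IP. Both Gnrh1 means cover unlike libraries. The 5 markers summed to 3400 to 21350 CPM in the IPs, split by library number as given below for Gpr137b. In the supernatants they summed to 1675 CPM in intact female replicate 2 and to at most 549 CPM in the others.

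G protein-coupled receptors cross the membrane 7 times and pass an outside signal to a heterotrimeric G protein, whose alpha subunit then acts on targets such as adenylyl cyclase. Receptors found by sequence before their ligand was known received a Gpr number, and many remain orphans. In the preoptic area such receptors sit on neurons, glia and vessels alike. The name is no guarantee of a role: 9 members of the table, Gpr107, Gpr108, Gpr137, Gpr137b, Gpr137c, Gpr155, Gpr157, Gpr180 and Gpr89, lie outside the classical families. Ligands are known for several others, such as Gpr30 (now Gper1, which binds estrogens) and Gpr81 (now Hcar1, the lactate receptor). In all, 9 members have since been renamed, 7 of them as adhesion receptors.

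Between the fractions, the members split in both directions. Among the 52 members at 1 CPM or more in both fractions, 8 were higher in the IP and 13 were lower (edgeR quasi-likelihood test over all 16713 genes tested, adjusted p under 0.05). Of all tested genes, 21.3% were higher and 21.6% lower. Those shares are over genes without the limit of 1 CPM in both fractions, which leaves out genes nearly absent from 1 of them. The sets are thus unlike, and no test set the counts of the 52 against the shares. Over all 57 the counts were 9 and 14, which include members let in by 1 fraction only, where the limit favours a difference. The median log2 fold change of the 52 was -0.15, against -0.06 for all genes. For 19 of 57 members the log2 fold change lay within 0.25 of 0. In bulk RNA, fewer cells of a type and less RNA per cell cannot be told apart.

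**Figure D1:**
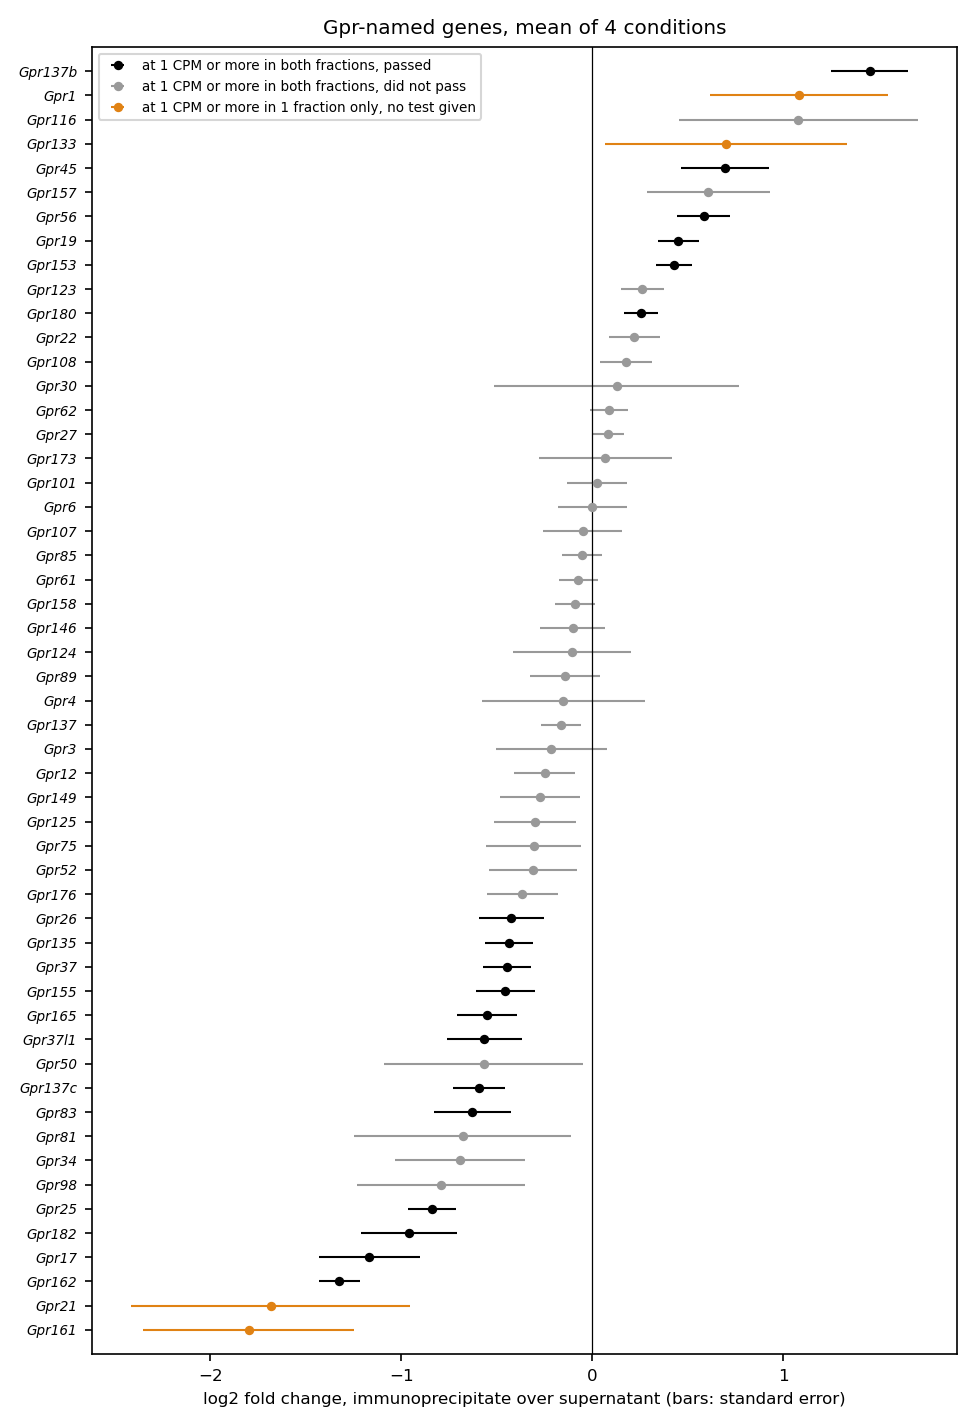
Log2 fold change of the immunoprecipitate over the supernatant (x axis, bars are standard errors) for 53 of the 57 members (y axis), as a mean over the 4 conditions, 13 pools in all. Black points passed the test, grey points did not, and orange points mark 4 members that reached 1 CPM in 1 fraction only. Gpr137b lies farthest to the right and Gpr162 farthest to the left among the black points.

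Promoter sequence is shown for a contrast in direction: Gpr19 and Gpr56 were higher in the IP and Gpr83 was lower. Each is the 250 bases before the RefSeq start on GRCm38.p6, read 5′ to 3′ in the direction of the gene, with matches to 5 searched motifs in capitals. Gpr19 lies on the minus strand at chr6:134897926-134898175, Gpr56 (RefSeq Adgrg1) on the plus strand at chr8:94976859-94977108, and Gpr83 on the plus strand at chr9:14859960-14860209. By GENCODE M21, Gpr19 starts at 134898578 and Gpr56 at 94974751, so their windows lie inside the gene, before a later start. Gpr83 starts at 14860210, next to its window.
Gpr19: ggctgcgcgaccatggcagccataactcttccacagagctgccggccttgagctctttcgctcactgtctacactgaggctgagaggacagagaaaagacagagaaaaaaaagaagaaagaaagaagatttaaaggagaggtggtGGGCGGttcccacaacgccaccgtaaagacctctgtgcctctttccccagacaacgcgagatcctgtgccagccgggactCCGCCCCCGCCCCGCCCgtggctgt
Gpr56: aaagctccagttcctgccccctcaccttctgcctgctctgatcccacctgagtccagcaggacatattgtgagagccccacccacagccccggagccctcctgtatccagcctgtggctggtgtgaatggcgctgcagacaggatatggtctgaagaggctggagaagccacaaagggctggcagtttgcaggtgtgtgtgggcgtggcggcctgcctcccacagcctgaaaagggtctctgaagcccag
Gpr83: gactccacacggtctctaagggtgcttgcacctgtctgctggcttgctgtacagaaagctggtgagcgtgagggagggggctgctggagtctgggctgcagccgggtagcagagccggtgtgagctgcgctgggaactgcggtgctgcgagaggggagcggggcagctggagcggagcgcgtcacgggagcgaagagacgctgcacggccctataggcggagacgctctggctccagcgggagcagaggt
The motifs, searched on both strands, were the cAMP response element TGACGTCA, the E-box CACGTG, the GC box GGGCGG, the homeodomain core TAATTA and the Otx-type site TAATCC. Capitals in Gpr19 mark GC boxes, 2 of which overlap, and no searched motif occurs in the windows of Gpr56 or Gpr83. Of 32851 promoters of the same length, 32.7% hold a GC box, 1.55% the cAMP response element, 6.02% the E-box, 4.84% TAATTA and 6.25% TAATCC. The windows hold 14 CpG pairs in Gpr19, 4 in Gpr56 and 18 in Gpr83, against a median of 6 over all promoters. RefSeq entries were matched for 40 members, with a median of 10.5 CpG, and 17 members, Gpr137b and Gpr162 among them, had no entry.

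Gpr137b (mm10, chromosome 13, 13357620 to 13394014, minus strand) encodes a membrane protein of the lysosome that acts on the mTORC1 pathway, and is not a classical receptor. It ran from 4.84 to 29.4 CPM in the IPs (median 19.3) and from 4.96 to 8.09 CPM in the supernatants (median 6.23), and was higher in the IP in 12 of 13 pools. The fold was 2.74 (log2 1.45 ± 0.20 SE, adjusted p 3.34e-06). The labels number the libraries, and the ratio was not the same across those numbers. In the 4 intact pools of libraries 1 to 10 the IP values were 13.8, 10.1, 8.42 and 4.84 CPM. In the 3 intact pools of libraries 11 to 30 they were 16.2, 25.2 and 22.3 CPM, all above those 4. The log2 was 0.37 (adjusted p 0.358) in libraries 1 to 10 alone and 1.81 (adjusted p 7.95e-07) in 11 to 30 alone. The GnRH neuron markers went the other way, summing to 17250 to 21350 CPM in the IPs of libraries 1 to 10. In the IPs of libraries 11 to 30 they summed to 3400 to 9144 CPM, with no overlap. The part of this difference in the ratios of members was not tested. The table also has a row for the pseudogene Gpr137b-ps, with IP means of 14.3, 13.96, 19.9 and 26.7 CPM in intact females, ovariectomized females, intact males and orchidectomized males, all above the supernatant means of 6.51, 6.51, 6.70 and 6.90 CPM. The sources used here do not say how reads common to the pair were counted, and the level of Gpr137b is uncertain.

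The other members of the Gpr137 family did not follow Gpr137b. Gpr137c passed as lower in the IP, with 9.39 ± 2.90 CPM (SD, n = 13) against 14.1 ± 2.46 CPM in the supernatant and a log2 of -0.59 ± 0.14 SE (adjusted p 0.00115). Gpr137 itself did not pass, at 72.8 ± 20.1 CPM against 80.1 ± 10.6 CPM, and its exons overlap 517 bases of Bad on the opposite strand. The pool ratio of Gpr137b was above that of Gpr137c in 13 of 13 pools and above that of Gpr137 in 12.

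Gpr56 (now Adgrg1), an adhesion receptor of neural progenitors and of the oligodendrocyte lineage, was higher in the IP in all 13 pools. Its IPs ran from 31.2 to 109 CPM (median 61.9) and its supernatants from 27.6 to 62.9 CPM (median 42.9), so the groups overlapped although every pool went the same way. The log2 was 0.58 ± 0.14 SE (adjusted p 0.0015), and in libraries 1 to 10 alone it was 0.44 (adjusted p 0.055). None of the other 5 adhesion receptors at 1 CPM in both fractions passed. Gpr123 (now Adgra1), a brain receptor, had 53.0 ± 16.1 CPM in the IP and 42.8 ± 6.55 CPM in the supernatant, with an adjusted p of 0.0619. With the pool as a block, Gpr123 passed (log2 0.25, adjusted p 0.0271), and it passed in 10 of 34 alternative settings in all. Gpr98 (now Adgrv1), which builds links between hair-cell stereocilia, and Gpr125 and Gpr124 had log2 values of -0.79, -0.30 and -0.11. Gpr98 passed as lower without the IP of intact female replicate 2 (-1.08, adjusted p 0.0469), without that of orchidectomized male replicate 2 (-1.21, adjusted p 0.0294) and with limma voom (-1.44, adjusted p 0.00777).

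Gpr19, a rhodopsin-like orphan receptor, ran from 15.3 to 36.0 CPM in the IPs (median 25.02) and from 14.6 to 20.3 CPM in the supernatants (median 18.1). It was higher in 12 of 13 pools, though the ranges overlapped. Its log2 was 0.45 ± 0.11 SE (adjusted p 0.00145), and it passed in both sets of library numbers. The proton sensor Gpr4 did not pass (log2 -0.15, adjusted p 0.803). Gpr180, a membrane protein tied to TGF-beta signalling, passed at a log2 of 0.26 (adjusted p 0.023, 10 of 13 pools). It did not pass in libraries 1 to 10 alone (0.30, adjusted p 0.172) or in 11 to 30 alone (0.23). In a setting that was not planned, it lost the call (adjusted p 0.0842) without 3 libraries that stood apart in marker sums. These were the IP of orchidectomized male replicate 0 and the supernatants of intact female replicate 2 and intact male replicate 3.

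Gpr45, an orphan receptor of neurons, passed on average but split by library number. Its log2 over all pools was 0.69 ± 0.23 SE (adjusted p 0.0181), and with the pool as a block it no longer passed (0.55, adjusted p 0.0858). In libraries 1 to 10 the 4 IPs stood at 5.65, 3.68, 8.01 and 3.99 CPM and each was below its own supernatant. In libraries 11 to 30 all 9 IPs, from 8.81 to 26.6 CPM, were above theirs. Fitted alone, the 2 sets gave -0.78 (adjusted p 0.103) and 1.21 (adjusted p 6.92e-05). Gpr157, a receptor-like protein of cilia, had the same split; both were singled out for this after their values were seen. It gave -1.59 (adjusted p 0.0316) in libraries 1 to 10 and 1.16 (adjusted p 0.00741) in 11 to 30. Over all pools Gpr157 did not pass (adjusted p 0.132). The difference between the sets was not itself tested, and all pools of libraries 1 to 10 are intact mice. The IPs of libraries 1 to 10 also had the higher GnRH neuron marker sums given above.

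**Figure D2:**
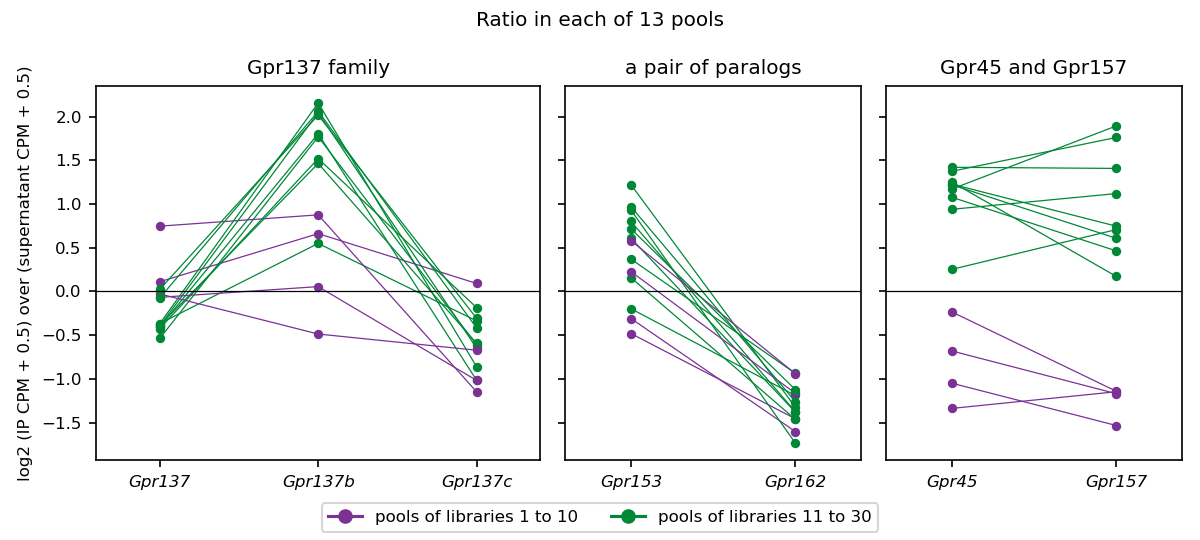
Log2 ratio of the immunoprecipitate to the supernatant, with 0.5 CPM added to each (y axis), for related or paired members (x axis), with 1 line for each of 13 pools, coloured by library number. Gpr137b lies above Gpr137c in 13 pools and Gpr153 above Gpr162 in 13, and for Gpr45 and Gpr157 the 4 pools of libraries 1 to 10 lie below 0 and the other 9 above it.

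On the lower side, Gpr162 had the lowest adjusted p of all members. This orphan receptor of the brain (chromosome 6, 124858444 to 124863983, minus strand) ran from 24.1 to 59.1 CPM in the IPs (median 33.5) and from 67.3 to 114 CPM in the supernatants (median 84.5). The ranges did not overlap and all 13 pools went the same way. Its level was 2.50-fold lower in the IP (log2 -1.32 ± 0.11 SE, adjusted p 8.67e-10). It passed in each of the 4 conditions taken alone, as did Gpr25, with log2 values of -1.52 in intact females, -1.18 in ovariectomized females, -1.11 in intact males and -1.49 in orchidectomized males.

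Gpr153, the closest relative of Gpr162 among the members, went the other way. It passed as higher in the IP (log2 0.43 ± 0.09 SE, adjusted p 0.000571), with 92.0 ± 34.7 CPM against 64.2 ± 8.93 CPM, and its ratio was above that of Gpr162 in 13 of 13 pools, by a median of 1.62 on the log2 scale. It was higher in 10 of 13 pools, and the 3 exceptions were female. The pools of libraries 1 to 10 gave 0.06 (adjusted p 0.662). Per kilobase of exon, Gpr162 had 30.2 CPM and Gpr153 16.4 CPM in the supernatant, but 12.3 and 23.6 CPM in the IP, so the order of their levels turned between the fractions.

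Gpr25, a receptor known from lymphocytes, and Gpr83, a receptor for the peptide PEN, were lower too. Gpr25 ran from 4.52 to 8.28 CPM in the IPs (median 6.32) and from 9.14 to 14.5 CPM in the supernatants (median 10.5), with no overlap. Its log2 was -0.84 ± 0.12 SE (adjusted p 7.9e-06) over all pools and -0.54 (adjusted p 0.141) in libraries 1 to 10 alone. Of its 1077 exon bases, 448 lie antisense to Gm26781, and the library kit does not mark strand, so these reads cannot be told apart. Gpr83 ran from 4.37 to 21.1 CPM in the IPs (median 14.2) and from 11.2 to 28.7 CPM in the supernatants (mean 19.3). The ranges overlapped, with 12 of 13 pools lower (log2 -0.63 ± 0.20 SE, adjusted p 0.0148).

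**Figure D3:**
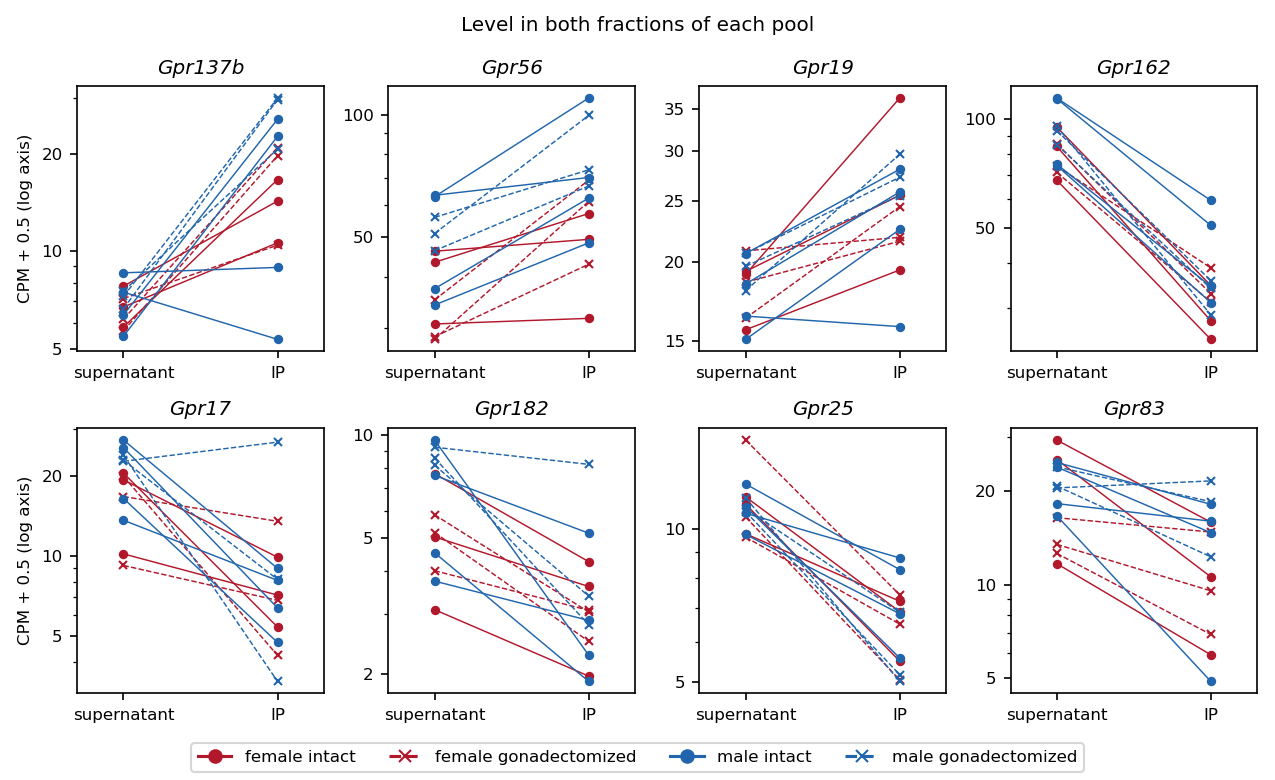
Level of 8 members that passed and went the same way in at least 11 of 13 pools, as CPM plus 0.5 on a log axis (y), in the supernatant and the immunoprecipitate (x), with 1 line for each pool by sex and gonadal status. The lines of Gpr56 rise in all 13 pools, and those of Gpr162, Gpr182 and Gpr25 fall in all 13.

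Several members with a lower IP level are known from glia or vessels. Gpr17, which times the maturation of oligodendrocyte precursors, ran from 2.88 to 26.3 CPM in the IPs (median 6.63) and from 8.72 to 26.8 CPM in the supernatants (median 19.4). The ranges overlapped, and 12 of 13 pools were lower, the exception being orchidectomized male replicate 0 with 26.3 CPM against 22.2 CPM. Its log2 of -1.17 ± 0.26 SE (adjusted p 0.000915) became -0.92 (adjusted p 0.0787) with libraries 11 to 30 only. Gpr37l1 of astrocytes and Gpr37 of oligodendrocytes, both tied to prosaposin, were lower in 12 of 13 pools each. Their log2 values were -0.56 ± 0.20 SE (adjusted p 0.0233) and -0.44 ± 0.13 SE (adjusted p 0.00633). Gpr37l1 lost its call without the supernatant of intact female replicate 1 (-0.48, adjusted p 0.0558) and in libraries 11 to 30 alone (-0.40, adjusted p 0.170), and Gpr37 in libraries 1 to 10 alone (-0.35, adjusted p 0.138).

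Gpr182, a scavenging chemokine receptor of endothelium, was lower in the IP in all 13 pools. It ran from 1.40 to 7.72 CPM in the IPs (median 2.54) and from 2.58 to 9.18 CPM in the supernatants (median 5.35), which overlapped. Its log2 was -0.96 ± 0.25 SE (adjusted p 0.00356), and -1.12 (adjusted p 0.0892) in libraries 1 to 10 alone. Gpr34, a lysophosphatidylserine receptor of microglia, did not pass (log2 -0.69, adjusted p 0.107), with IPs from 0.135 to 3.18 CPM and supernatants from 1.49 to 2.52 CPM. It passed without the IP of intact female replicate 1 (-0.94, adjusted p 0.0255) and with limma voom (-1.02, adjusted p 0.0170).

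Marker genes of those cells moved in the same libraries. All 10 oligodendrocyte markers, 6 of 8 astrocyte markers, 5 of 9 microglial markers and 2 of 6 precursor markers were lower in the IP, and 1 precursor marker was higher. Of 10 endothelial and mural markers, 4 were higher and 1 was lower. The IP of orchidectomized male replicate 0 was highest in the astrocyte list (2048 summed CPM, next 637) and in the endothelial list (285, next 90.6). In the oligodendrocyte list it was highest by little (2081, next 2071). In the precursor list it stood at 80.4, below the highest IP at 123. Of the members, that library was the highest IP in Gpr37l1 (132 CPM), Gpr37 (37.0), Gpr17 (26.3), Gpr182 (7.72) and Gpr116 (29.8). Without that library the log2 values were -0.76 for Gpr37l1, -0.56 for Gpr37, -1.47 for Gpr17 and -1.14 for Gpr182, each larger in size than with it. Leaving out the highest IP of a member lowers its log2 in any case, for Gpr116 too, so no conclusion is drawn from these shifts. Gpr116 (now Adgrf5), an adhesion receptor of lung epithelium and endothelium, did not pass with that library (log2 1.08 ± 0.63 SE, adjusted p 0.171), and its log2 was 0.08 without it. The part of these cells in the members' ratios was not tested.

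**Figure D4:**
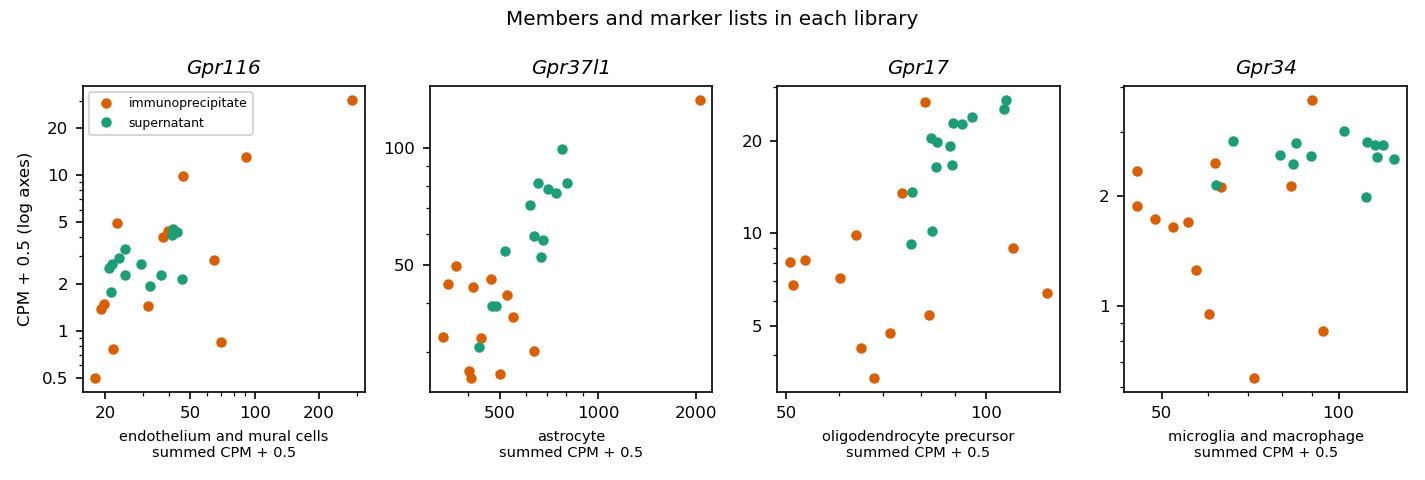
Level of 4 members (y, CPM plus 0.5) against the summed level of the marker list of a cell type each is known from (x, summed CPM plus 0.5), on log axes, with 1 point for each of 13 immunoprecipitates and 13 supernatants. The point farthest to the right for Gpr116 and Gpr37l1 is the immunoprecipitate of orchidectomized male replicate 0, at 285 and 2048 summed CPM.

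The remaining lower members were mostly rhodopsin-like orphans of the brain. Gpr165, on the X chromosome, had a log2 of -0.55 (adjusted p 0.006), Gpr135 one of -0.43 (adjusted p 0.0066) and Gpr26 one of -0.42 (adjusted p 0.0482). The call of Gpr26 was near the limit and passed in 11 of 34 alternative settings. The lysosomal cholesterol sensor Gpr155 had -0.45 (adjusted p 0.0205). In libraries 11 to 30 alone Gpr165 and Gpr155 did not pass (adjusted p 0.230 and 0.178). Gpr135, and Gpr137c described above, did not pass in libraries 1 to 10 alone (adjusted p 0.161 and 0.212). Gpr81 did not pass over all libraries (-0.68, adjusted p 0.354) but did in 3 of 34 alternative settings. These were without the IP of intact male replicate 3 (-1.58, adjusted p 0.00719), with the pool as a block (-1.34, adjusted p 0.0403) and with limma voom (-1.40, adjusted p 0.0387).

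A group of receptors with high activity in the absence of ligand had log2 values within 0.25 of 0 over all libraries. Gpr3, Gpr6 and Gpr12, which raise cAMP on their own, had log2 values of -0.21, 0.00 and -0.25, and none passed. The SREB receptors Gpr27, Gpr85 and Gpr173, which are strongly conserved in vertebrate brain, had 0.08, -0.05 and 0.07. Of these, Gpr27 had 42.9 ± 10.1 CPM in the IP and 40.5 ± 6.64 CPM in the supernatant, and its spread between IPs of a group was the smallest of the 52 members (SD 0.20 on the log2 scale, median of the members 0.53). The supernatants varied less, with a median SD of 0.25, so differences among IPs need to be larger to pass. In libraries 1 to 10 alone Gpr3, Gpr6, Gpr27 and Gpr85 had -1.255, -0.31, -0.35 and -0.54. In 11 to 30 alone they had 0.19, 0.18, 0.23 and 0.16. Gpr12 and Gpr173 kept their sign, and none of these receptors passed in either set. The SE was as large as 0.35 for Gpr173, so not passing does not show equal levels. Estrogen-binding Gpr30 had 2.70 ± 2.77 CPM in the IP and 2.25 ± 0.865 CPM in the supernatant and did not pass (adjusted p 0.892). In libraries 1 to 10 alone it passed as lower in the IP (log2 -2.25, adjusted p 0.0432).

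Further members did not pass either. Gpr101, an X-linked receptor tied to growth hormone release, stood at 12.9 ± 5.10 CPM against 12.4 ± 3.18 CPM. Gpr158, a glycine-responsive class C receptor of neurons, had 30.7 ± 9.52 CPM in the IP and 33.0 ± 7.78 CPM in the supernatant. Gpr61 and Gpr62, a related pair of constitutively active orphans, had log2 values of -0.07 and 0.09, and the Golgi-associated proteins Gpr107, Gpr108 and Gpr89 had -0.05, 0.18 and -0.14. Gpr22, Gpr146, Gpr149, Gpr52, Gpr75 and Gpr176, which signals through Gz in the circadian clock, lay between -0.37 and 0.22, and Gpr176 passed as lower with limma voom (-0.50, adjusted p 0.0203). The melatonin-related receptor Gpr50 had a log2 of -0.57 ± 0.52 SE, with IPs from 0 to 7.01 CPM. It passed as lower without the IP of intact female replicate 2 (-1.66, adjusted p 0.00894), with limma voom (-1.46, adjusted p 0.0211) and in libraries 1 to 10 alone (-4.10, adjusted p 0.0313), and had 0.08 (adjusted p 0.937) in libraries 11 to 30 alone.

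Members at 1 CPM or more in 1 fraction only are given with no test, since the limit that let them in favours a difference. The chemerin receptor Gpr1 ran from 0.0488 to 4.46 CPM in the IPs (median 1.99, mean 2.00 ± 1.496) and from 0.483 to 1.44 CPM in the supernatants (median 0.985, mean 0.959 ± 0.251). The ranges overlapped, with the IP higher in 9 of 13 pools, and the log2 was 1.08 over all libraries and 0.60 with the pool as a block. The adhesion receptor Gpr133 (now Adgrd1) ran from 0 to 3.47 CPM in the IPs (median 0.608, mean 1.23 ± 1.32) and from 0.215 to 1.26 CPM in the supernatants (median 0.690, mean 0.722 ± 0.315). It was higher in the IP in 7 of 13 pools and lower in 6, and the sign of its log2 was not the same in all settings. It was 0.70 over all libraries but -0.42 without the IP of ovariectomized female replicate 2, -0.34 with the pool as a block and -0.47 with limma voom.

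On the supernatant side, Gpr161, which acts in the primary cilium on hedgehog signalling, ran from 0.0210 to 1.85 CPM in the IPs (median 0.244, mean 0.411 ± 0.543) and from 0.446 to 1.96 CPM in the supernatants (median 1.44, mean 1.36 ± 0.549). It was lower in the IP in 10 of 13 pools, with a log2 of -1.80 over all libraries, -5.06 in libraries 1 to 10 and -0.95 in libraries 11 to 30. Gpr21, whose gene lies inside Rabgap1 on the same strand, ran from 0 to 2.16 CPM in the IPs (median 0.0585, mean 0.388 ± 0.664) and from 0.668 to 1.85 CPM in the supernatants (median 0.971, mean 1.07 ± 0.329). It was lower in the IP in 11 of 13 pools, and its log2 of -1.68 became -2.71 without the IP of intact female replicate 2 and -3.21 with the pool as a block.

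Of 58 signalling partners of these receptors in 5 lists, 23 passed as lower in the IP, 10 passed as higher and the rest did not pass. Of 12 G protein alpha subunits, 6 were lower and 0 higher at an adjusted p under 0.05 (edgeR), with Gnaq at -0.84 and Gnal, the olfactory-type alpha subunit, at -0.62. Of 15 beta and gamma subunits, 3 were higher and 5 lower; Gng8 had the largest value, at a log2 of 3.95 ± 0.27 SE (adjusted p 4.71e-11), followed by Gng10 with 0.54, and Gng7 was lowest with -0.84. Of 7 receptor kinases and arrestins, which switch receptors off, 4 were lower and 0 higher, led by Adrbk2 (-0.86) and Adrbk1 (-0.75). These counts stand beside the shares of 21.3% higher and 21.6% lower given above for all genes, and no test set the lists against those shares.

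RGS proteins, which speed the turn-off of alpha subunits, were split, with 5 of 16 higher (Rgs11 0.84, Rgs17 0.69) and 5 lower (Rgs5 -0.88, Rgs14 -0.49). Of 8 adenylyl cyclases 2 were higher (Adcy1 0.85, Adcy7 0.66) and 3 lower (Adcy5 -0.58, Adcy8 -0.55). Of 12 tested adhesion receptors with other names, 2 were higher (Celsr1 2.03, Celsr3 0.94) and 2 lower (Bai1 -0.97, Bai3 -0.38).

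Taken one condition at a time, fewer members passed. In intact females 1 of 57 was higher and 3 lower, beside 10.2% and 7.77% of all genes. In ovariectomized females it was 1 and 2, beside 2.97% and 3.31%. In intact males it was 4 and 7, beside 14.6% and 11.2%, and in orchidectomized males 4 and 2, beside 5.93% and 4.73%. Among the 52 members at 1 CPM or more in both fractions, 3 were higher in each male group, and the other counts were the same. The counts over 57 thus include calls of members let in by 1 fraction only, where the limit favours a difference. Gpr137b passed as higher in 3 conditions, with log2 values of 1.51 in ovariectomized females, 1.23 in intact males and 1.98 in orchidectomized males. Gpr153 passed in both male groups, with 0.62 and 0.94. Gpr25 passed as lower in all 4 conditions, with -0.78, -0.94, -0.60 and -1.03 in the order given at the start of this paragraph. Leaving out 1 library moved these counts: intact females had 1 call without the supernatant (8.498% of all genes) or without the IP of replicate 0 (7.20%), 2 without the supernatant of replicate 1 (10.1%) and 7 without the IP of replicate 2 (28.98%). Ovariectomized females had 1 call without the supernatant of replicate 0 (3.49%) or the IP of replicate 2 (3.47%), and 5 without the IP of intact male replicate 1 (7.26%) or 2 (6.74%). Intact males had 7 without the supernatant of replicate 0 (20.3%), 1 (21.9%) or 2 (20.7%).

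Whether the enrichment itself differed between conditions was tested as an interaction, and no member passed in any of the 4 tests (edgeR, adjusted p under 0.05), beside 0.00598% of all genes for sex in intact mice and 0% in the other 3. At an unadjusted p under 0.05 there were 4 of 57 for gonadectomy in females, beside 7.47% of all genes, and 3 for gonadectomy in males, beside 8.16%. For males against females there were 2 among intact mice, beside 4.43%, and 2 among gonadectomized mice, beside 5.27%. The lowest p values belonged to Gpr165 for gonadectomy in females (1.36, adjusted p 0.664), Gpr158 for gonadectomy in males (0.72, adjusted p 0.593) and Gpr153 for sex in intact (0.82, adjusted p 0.963) and gonadectomized mice (0.60, adjusted p 0.921). DESeq2 and limma voom called 0 members in these tests as well. Without the IP of intact female replicate 2, Gpr50 passed for gonadectomy in females (7.45, adjusted p 0.0356), where its remaining intact female IPs stood at 0 and 0.021 CPM. Between the settings that leave out 1 library, 0% to 1.74% of all genes passed in that test.

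Sex and gonadectomy were then compared within each fraction, measures that the choice of members did not use. No member passed in any of the 8 comparisons with edgeR. Of all genes, 0.0122% passed for gonadectomy in female supernatants, 0.0428% for sex in the supernatants of either gonadal status, 0.0248% and 0.0186% for sex in intact and gonadectomized IPs, and 0% in the other 3. In the supernatant, gonadectomy gave 3 of 57 at an unadjusted p under 0.05 in females, beside 7.31% of all genes, and 1 in males, beside 2.73%. The lowest p values were those of Gpr161 in females (-0.96, adjusted p 0.653) and Gpr3 in males (0.52, adjusted p 1). Gpr3 stood at 5.10, 5.29 and 5.53 CPM in orchidectomized males and at 4.72, 3.54, 3.37 and 3.21 CPM in intact males, which did not overlap, a pattern held by 3.07% of all genes in this direction. In the IP, gonadectomy gave 2 of 57 in females, beside 3.66%, and 6 in males, beside 9.34%. Their lowest p values were those of Gpr165 (0.90, adjusted p 0.994) and Gpr158 (0.81, adjusted p 0.525). Gpr158 stood at 43.6, 50.5 and 43.2 CPM in the IPs of orchidectomized males and at 18.1, 27.3, 28.5 and 30.2 CPM in those of intact males, with no overlap, as for 4.74% of all genes.

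A call for gonadectomy appeared when 1 library or the numbering was taken into account. Without the supernatant of ovariectomized female replicate 2, Gpr165 passed as lower in ovariectomized females (-1.11, adjusted p 0.0339). Between the settings that leave out 1 library, 0.00604% to 3.05% of all genes passed in this comparison. Its supernatants stood at 4.72, 8.21 and 17.98 CPM there and at 17.65, 12.7 and 12.25 CPM in intact females, and the 17.98 CPM is that library. With a term for the library numbers, Gpr37l1 passed as higher in the supernatant of orchidectomized males (0.94, adjusted p 0.0344), beside 0.00611% of all genes. Its supernatants were 80.7, 75.9 and 70.8 CPM in those mice. Among intact males they were 80.6 and 98.7 CPM in libraries 1 to 10 but 38.8 and 38.8 CPM in libraries 11 to 30. The astrocyte marker list moved in the same supernatants. It summed to 620 to 804 CPM in orchidectomized males, to 656 and 774 CPM in intact males of libraries 1 to 10 and to 472 and 486 CPM in those of libraries 11 to 30, and its part in the difference was not tested.

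Between the sexes, differences leaned to higher levels in males. In the supernatant of intact mice, 4 of 57 members had an unadjusted p under 0.05, beside 3.71% of all genes, all 4 higher in males. In gonadectomized mice it was 18, also all higher in males, beside 21.1% of all genes in either direction and 8.91% in that direction. With groups that did not overlap in CPM, males were above females for 26 of 57 members (45.6%) in gonadectomized supernatants, beside 13.9% of all tested genes. Males were below for 0 members, beside 12.2%. These 26 included Gpr37, Gpr158, Gpr161, Gpr165, Gpr17, Gpr182, Gpr83 and Gpr153. Every ovariectomized pool held 7 mice and every orchidectomized pool 5, so sex cannot be told apart from pool size among gonadectomized mice. Depth differed too in these supernatants, with 27217253 to 38958786 counts in females and 45580637 to 47555919 in males.

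Marker lists moved in the same libraries. In those supernatants the oligodendrocyte list summed to 2991 to 3186 CPM in males and 2487 to 2725 CPM in females, the endothelial list to 36.0 to 41.0 and 22.7 to 31.9 CPM, and the meningeal list to 79.3 to 94.1 and 30.6 to 54.9 CPM. The oligodendrocyte precursor list, the cells that Gpr17 is known from, summed to 88.7 to 94.7 CPM in males and 76.8 to 88.6 CPM in females. Lists lower in males were those of neurons, at 4164 to 4236 against 4301 to 4657 CPM, of ependyma, at 33.9 to 36.5 against 42.0 to 74.6 CPM, of blood, at 19.8 to 23.5 against 23.6 to 60.6 CPM, and of epithelial genes, at 3.90 to 5.195 against 5.71 to 8.73 CPM. Of 11 marker lists these 8 did not overlap between the sexes, 4 above and 4 below in males, and the GnRH neuron, astrocyte and microglial lists overlapped. Their part in the members' differences was not tested.

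No member passed in this comparison with edgeR, and the other settings gave different counts. DESeq2 called 8 members (7.68% of all genes), a term for library numbers 11 (6.60% of all genes) and libraries 11 to 30 alone 3 (1.60% of all genes), while limma voom called 0 (0.0367% of all genes). Without the supernatant of ovariectomized female replicate 2 the count was 14, beside 17.5% of all genes, with 13 higher in males and 1 lower. The member with the lowest p was Gpr37, at 16.6, 22.9 and 23.6 CPM in ovariectomized females and 36.1, 35.9 and 38.5 CPM in orchidectomized males, with no overlap. Its log2 difference was 0.80 ± 0.15 SE (adjusted p 0.108) over all libraries, 0.79 (adjusted p 0.0102) with the term for numbers and 0.84 (adjusted p 0.0381) in libraries 11 to 30 alone.

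In intact mice the lowest p in the supernatant was that of Gpr165. It stood at 36.2, 28.6, 25.5 and 28.95 CPM in intact males against 17.65, 12.7 and 12.25 CPM in intact females (log2 1.09 ± 0.31 SE, adjusted p 0.861). In orchidectomized males it stood at 20.1, 25.7 and 22.3 CPM. All 7 male supernatants were above all 6 female ones, as they were for Gpr37 and Gpr173, and 55 of 16360 tested genes (0.336%) had that pattern. Gpr173 stood between 3.24 and 4.73 CPM in males and between 1.74 and 3.22 CPM in females. Gpr165 and Gpr173 are among the 5 members on the X chromosome, with Gpr34, Gpr50 and Gpr101.

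In the IP, 5 of 57 members had an unadjusted p under 0.05 between intact males and females, beside 4.11% of all genes, and 5 between gonadectomized ones, beside 8.59%. Gpr153 had the lowest p in both comparisons. It stood at 92.05, 116, 91.1 and 118 CPM in intact males and 105, 159 and 140 CPM in orchidectomized males. In females it stood at 51.0, 46.6 and 66.2 CPM when intact and 82.3, 51.2 and 78.5 CPM after ovariectomy. All 7 male IPs were above all 6 female ones, which was so for 27 of 16160 tested genes (0.167%) and for no other member. The log2 difference was 0.93 ± 0.21 SE (adjusted p 0.725) in intact and 0.93 ± 0.22 SE (adjusted p 0.551) in gonadectomized mice, so neither passed with edgeR, and DESeq2 called the first (0.92, adjusted p 0.0402), beside 0.118% of all genes. In libraries 11 to 30 alone the value was 0.65 in intact mice, where replicate 2 was the only intact female pool left. In gonadectomized mice, all of whose pools have those numbers, it was 0.91 (adjusted p 0.0974). Gpr153 supernatants overlapped between the sexes, at 47.05 to 65.2 CPM in females and 55.3 to 78.5 CPM in males.

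**Figure D5:**
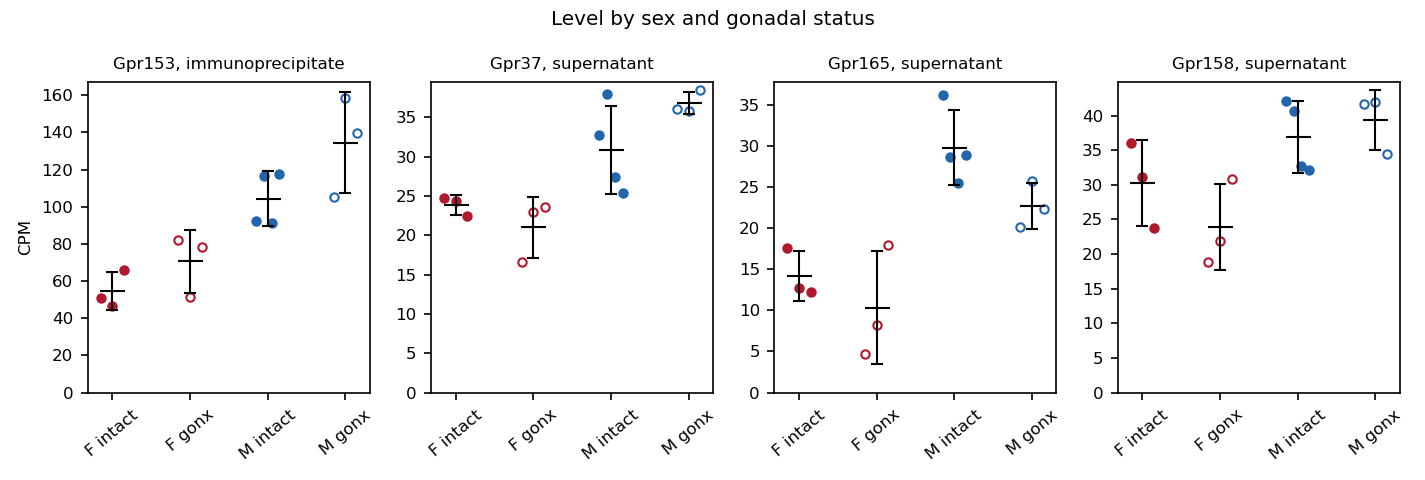
CPM by sex and gonadal status (x axis; F female, M male, gonx gonadectomized) of Gpr153 in the immunoprecipitate and of Gpr37, Gpr165 and Gpr158 in the supernatant (y axis), with 1 point for each pool and black bars for the mean and SD of 3 or 4 pools. The 7 male points of Gpr153, Gpr37 and Gpr165 all lie above the 6 female points, and those of Gpr158 overlap.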

How the data were processed

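Per the labels' protocols, RNA of 13 pools was split into 2 fractions, amplified with a low-input SMART-Seq kit that does not mark strand, and sequenced as paired ends. The authors deposited 1 table of estimated counts per gene. The submitters' processing notes name mm10, Bowtie2 2.1.0 with TopHat2 2.0.9, Cuffdiff 2.1.1 with Cufflinks, and FastQC. Which gene models were used, and how multi-mapping reads were treated, is not given in the sources used here.

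The deposited estimated counts were rounded and tested with edgeR 4.0.16 in R 4.3.3 (TMM, filterByExpr with a minimum count of 10 and total of 15, two-sided quasi-likelihood F-test, Benjamini-Hochberg over all tested genes, passed at an adjusted p under 0.05). Every adjusted p comes from this test unless DESeq2 1.42.0 or limma 3.58.1 is named. Enrichment used all 26 libraries in 8 groups. Each comparison of sex or gonadectomy was fitted within a fraction, on 13 libraries. A positive log2 means higher in the IP, in gonadectomized mice or in males. CPM uses TMM effective library sizes. Levels between genes are compared only per kilobase of GENCODE M21 exon. On simulated counts with 100 genes changed at each fold, the test recovered 69% of 2-fold and 90% of 4-fold changes in the enrichment. Far more genes passed in the measured enrichment, which moves the cut-off, so these shares are not the recovery there. For gonadectomy in females the test recovered 67% and 92% in the supernatant, but 14% and 55% in the IP. Most 2-fold changes between conditions would thus be missed in the IP. Replicates are separate pools, and 2 of them never agreed within sampling noise (chi-square per degree of freedom at least 4.51). Counting intervals are not given, since PCR reads are not independent molecules.

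Both fractions of a pool come from the same animals, so the pool number pairs them. Their deviations from the group means correlated at 0.0143 to 0.17. Label numbers across conditions name different pools, but deviations of same-numbered male and female intact supernatants correlated at 0.297, 0.339 and 0.318, and a block there called 0 members, as did the fit without it. Labels number the libraries. Numbers 1 to 10 hold 4 intact pools of 6 or 7 mice.

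Members, gene lists and marker lists were chosen with earlier results of these data known. Values by library, or their range, are given for members that passed and went the same way in at least 11 of 13 pools. There are up to 6 of these per direction. The same holds for members at 1 CPM in 1 fraction only and for the member with the lowest p in each comparison of conditions. Other members have means, and some members counted above are not reported here by name. Of the partner lists, up to 2 called genes per direction are named. Positions are those of GENCODE M21, promoters those of RefSeq on GRCm38.p6. All 57 members were matched to RefSeq genes. Exons of 13 members overlap another gene, and those reads cannot be told apart.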

Additional observations from a re-analysis of the deposited data

Results flagged for a closer look

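In groups of 4 pools, a value whose gap to the nearest other exceeds 0.829 of the range was marked. Only intact males have 4 pools, so only their 114 groups (57 members in 2 fractions) were examined. This was so in 10 of them, and chance alone marks about 1 in 20. The IP of replicate 2 was high in Gpr161 (1.85 CPM, others up to 0.244), Gpr21 (2.16 CPM, others up to 0.244), Gpr52 (8.75 CPM, others up to 4.37) and Gpr6 (15.8 CPM, others up to 9.89). The IP of replicate 3 was high in Gpr81 (2.91 CPM, others up to 0.132) and Gpr30 (5.40 CPM, others up to 0.0561). The supernatant of replicate 1 was high in Gpr124 (8.59 CPM, others up to 5.00), Gpr22 (13.4 CPM, others up to 9.14) and Gpr116 (3.84 CPM, others up to 2.20). The supernatant of replicate 0 was high in Gpr61 (29.7 CPM, others up to 22.7).

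Gpr158 was higher in the IP in every pool of orchidectomized males (log2 0.22) and lower in every pool of intact males (-0.50). The interaction gave 0.72 with an adjusted p of 0.593 (edgeR). Gpr61 was higher in the IP in every pool of intact females (log2 0.40) and lower in every pool of intact males (-0.27). The interaction gave -0.66 with an adjusted p of 1 (edgeR).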

How the results depend on the processing

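The number of members was 58 on raw totals, 57 as a mean of group means, and 65 and 53 at limits of 0.5 and 2 CPM. Counts of higher and lower members in the enrichment were followed over all 57 members, those let in by 1 fraction only included. They kept within 1.5 times under DESeq2, limma voom, DESeq2 size factors, no filter and the pool block (9 and 16). Without 1 library they ran from 9 to 11 and from 12 to 16. Libraries 1 to 10 alone called 2 higher and libraries 11 to 30 alone 8 lower, beside 19.1% and 12.96% of all genes in those directions. Further values were followed for 15 members only. These passed and went the same way in at least 11 of 13 pools, or stood at 1 CPM in 1 fraction only. Of their 510 alternative values, 499 kept their side of the threshold or their size, 6 lost the call and 5 moved. All 6 losses came within the library numbers, and no call of these 15 turned. Outside the 15, Gpr26, Gpr45, Gpr37l1 and Gpr180 also lost their call in settings other than the library numbers. Gpr133, which was given no test, changed sign in 3 of the 499, with limma voom (-0.47), with the pool as a block (-0.34) and without the IP of ovariectomized female replicate 2 (-0.42).

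Within conditions, again over all 57 members, DESeq2 called 8 in intact and 6 in ovariectomized females, beside 22.9% and 9.04% of all genes. Limma voom called 7 and 1, beside 22.3% and 4.76%. Libraries 11 to 30 alone called 10 in ovariectomized females, 4 in intact males and 11 in orchidectomized males, beside 11.4%, 7.80% and 16.999% of all genes. Of intact females they hold replicate 2 only, so no count is given. Without 1 library the counts ran from 1 to 7 in intact and 1 to 5 in ovariectomized females, beside 7.20% to 28.98% and 3.47% to 7.31% of all genes. The counts ran from 7 to 14 in intact and 4 to 8 in orchidectomized males, beside 19.8% to 28.3% and 5.80% to 12.4%. Of the comparisons of conditions, males against females in gonadectomized supernatants called 8 with DESeq2, 3 in libraries 11 to 30 alone, 11 with a term for numbers and 0 to 14 without 1 library. For males against females in intact IPs DESeq2 called 1. For gonadectomy in male supernatants the term for numbers called 1. Without 1 library, gonadectomy in female supernatants and the difference in enrichment with gonadectomy in females each ran from 0 to 1. Beside these, 0.00604% to 3.05% and 0% to 1.74% of all genes passed. With the pool as a block, the 4 conditions had 5, 2, 12 and 7 calls, beside 18.3%, 6.14%, 25.9% and 10.8% of all genes, and a block for the replicate number left 0 members in all 8 comparisons of conditions. The causes were not tested. IPs varied more than supernatants (common coefficient of variation 0.560 against 0.181), and several IP values near 0 limit ratios of members near 1 CPM.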

Other observations

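Averaging sex over gonadal status, a comparison added after the data were seen, gave 22 members higher and 1 lower in male supernatants at an unadjusted p under 0.05. Beside these, 24.5% of all genes were under that limit in either direction. The share by direction is not given here, so the lean of the members is not set against that of all genes. None passed with edgeR, where Gpr37 had 0.60 (adjusted p 0.0536), Gpr165 1.11 and Gpr158 0.51 (both adjusted p 0.0701). DESeq2 called 9, limma voom 2 and a term for library numbers 19, beside 10.8%, 0.0856% and 12.8% of all genes, and without the supernatant of ovariectomized female replicate 2 the count was 12, beside 20.7% of all genes. In the IP, Gpr153 had 0.93 (adjusted p 0.0624), with 6.67e-05 in DESeq2, 0.0288 with the term for numbers, and a call without the IP of intact female replicate 2 (1.00 on the log2 scale).

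Averaging gonadectomy over sex, no member passed in either fraction with edgeR, where 1 was under an unadjusted p of 0.05 in the supernatant and 7 in the IP, beside 7.47% and 10.8% of all genes. Gpr37l1 passed in the supernatant with the term for numbers (0.91, adjusted p 0.00453). In libraries 11 to 30 alone, where intact females had replicate 2 only, its log2 was 0.92. In those libraries the supernatant astrocyte list summed to 431 to 486 CPM in the 3 intact pools. It summed to 518 to 804 CPM in the gonadectomized ones.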
